A study of Mus musculus with 16 samples.

Results

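The granzymes are the serine proteases that killer lymphocytes store in their secretory granules, and the 10 mouse genes Gzma, Gzmb, Gzmc, Gzmd, Gzme, Gzmf, Gzmg, Gzmk, Gzmm and Gzmn were taken here from a table of 52459 genes. They were chosen by symbol, because Gzme stood out between SS and SA mice in these same counts. The values of the 10 genes in that comparison are therefore a description, and no test of them is read. RNA came from 4 SS and 4 SA Townes mice, a humanised model of sickle cell disease. In both genotypes the human α-globin gene takes the place of the mouse one (the allele Hbatm1(HBA)Tow, homozygous, hα/hα), and human β-type globin alleles replace the adult mouse β-globins. The sickle allele also holds the human Aγ-globin gene. SS mice are homozygous for the sickle allele (hα/hα::βS/βS), and SA mice, the controls, carry 1 sickle and 1 normal human β allele (hα/hα::βA/βS), so both groups carry the sickle allele. The cells were bone marrow stromal cells, labelled mesenchymal stem cells and sorted as live single cells without CD45, Ter119 and CD31 and with CD51 and CD140a. The 16 sequenced samples are 8 mice on 2 lanes each, with 1 column of counts per mouse (SA1 to SA4 and SS1 to SS4). No age or sex of a mouse stands in the labels used here.

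Granzymes are made by cytotoxic T cells and natural killer cells and stored on the proteoglycan serglycin. On contact with a target cell they are released together with perforin, whose pores let them into the cytosol, where they cut proteins and start cell death. Gzma and Gzmk encode tryptases and lie side by side, Gzmm encodes an enzyme that cuts after methionine, and Gzmb encodes the protease that cuts after aspartate and sets off cell death. Gzmb heads a tandem block of related genes (Gzmc, Gzmf, Gzmn, Gzmg, Gzmd and Gzme) that continues into the gene of cathepsin G and the mast cell proteases.

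Total counts per library ran from 24797857 to 31117007. The sorted cells had the transcripts of marrow stroma: Cxcl12, the chemokine that holds blood stem cells in the niche, was at 10469 to 23400 CPM (counts scaled to a common library total) in SA and 14524 to 22055 in SS, and Pdgfra, the gene of CD140a, at 168 to 475 and 330 to 480. Transcripts of Ptprc, the gene of CD45, were nevertheless counted in every library, at 745, 732, 208 and 124 CPM in SA1 to SA4 and at 497, 54.0, 205 and 49.6 CPM in SS1 to SS4. 3 libraries (SA1, SA2 and SS1) stood apart as rich in leukocyte transcripts, and a number of log2 differences are given without them too. SS2 stood apart in another way. It had 57347 counts of Xist and 12 of the Y-linked gene Ddx3y, while each other library had at most 420 and at least 2282. 1 lane of SS4 is labelled SA in its source and mouse group and SS in its title, and the mouse was kept in SS. Date-like numbers in the titles form 3 sets, of which 1 holds all SA mice, 1 holds SS1, SS3 and SS4, and 1 holds SS2 alone, and their part and that of genotype cannot be told apart.

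The sequences just upstream of the start sites show how alike Gzme and 4 other members of the block are. The 120 bases before the annotated start of Gzme and of the 4 members whose 300-base start windows (250 bases before the start to 50 after) align with it over most of their length are given 5′ to 3′, all on the minus strand. They were taken from RefSeq on GRCm38.p6, in whose table all 10 members were found. Capitals mark the octamer right after that stretch in all 5 and, closer to the start, the letters TTTAAAA. They are shown because Gzme, which was counted, and Gzmd, Gzmg and Gzmf, which were not, can be compared letter by letter.
Gzme, chr14:56120626-56120745: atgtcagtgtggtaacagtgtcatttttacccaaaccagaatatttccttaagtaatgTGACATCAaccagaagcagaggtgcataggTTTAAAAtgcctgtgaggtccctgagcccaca
Gzmd, chr14:56132594-56132713: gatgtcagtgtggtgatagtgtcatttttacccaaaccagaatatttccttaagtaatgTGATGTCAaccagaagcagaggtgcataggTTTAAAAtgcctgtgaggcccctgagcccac
Gzmg, chr14:56159580-56159699: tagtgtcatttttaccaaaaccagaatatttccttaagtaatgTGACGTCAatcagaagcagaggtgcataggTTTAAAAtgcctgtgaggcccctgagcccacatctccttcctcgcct
Gzmf, chr14:56211408-56211527: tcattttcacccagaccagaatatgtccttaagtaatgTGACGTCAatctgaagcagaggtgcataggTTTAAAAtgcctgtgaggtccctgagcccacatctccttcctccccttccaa
Gzmc, chr14:56234658-56234777: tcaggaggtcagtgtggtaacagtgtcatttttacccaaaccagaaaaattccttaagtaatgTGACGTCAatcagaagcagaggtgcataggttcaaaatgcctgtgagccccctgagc
The 300-base window of Gzme matched that of Gzmd at 281 of 299 aligned bases (94.0%), Gzmg at 254 of 283 (89.8%), Gzmf at 248 of 278 (89.2%) and Gzmc at 258 of 292 (88.4%). The octamer reads TGACGTCA, the palindrome known as the cAMP response element, in Gzmc, Gzmf and Gzmg, where it begins 57, 82 and 77 bases before the start. Gzme differs from it by G5A and Gzmd by C4T, with positions counted from 1 at the 5′ end of TGACGTCA. Searched on both strands, TGACGTCA was in 588 of 32851 RefSeq start windows of that length (1.79%) and TTTAAAA in 2871 (8.74%). These letter patterns were picked after the sequences had been seen, and a match is a description of the letters only. TTTAAAA lies 32 bases before the start of Gzme, 31 before Gzmd, 47 before Gzmg and 52 before Gzmf, and is not in the window of Gzmc. The windows of Gzmn and Gzmb were less like that of Gzme, with matches at 122 of 161 (75.8%) and 151 of 197 aligned bases (76.7%). The windows of the 5 genes printed thus differed little, and the counts of these genes differed widely.

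Gzme was the member with the most counts in SS and with none in SA. It lies on the minus strand of chromosome 14 (GRCm38, 56117626 to 56120625) and encodes granzyme E, a protease of the mouse block without a human counterpart. All 4 SA libraries had 0 counts, and SS1 to SS4 had 177, 948, 174 and 153 counts. In CPM the SS values were 6.22, 34.3, 6.14 and 4.92, with a mean of 12.9 ± 14.3 (SD, n = 4). The groups did not overlap, and SS2 was far above SS1, SS3 and SS4, which were close together. Set against a floor of 3 counts in each SA library, the mean of SS was at least 121-fold higher. Without SS2, the library that also stood apart by Xist, it was at least 54.0-fold higher, with a mean of 5.76 ± 0.725 CPM (SD, n = 3). Without SA1, SA2 and SS1 it was at least 144-fold higher. Of all genes in the table, 36 had no count in SA and at least 1 in every SS library, and Gzme was the only 1 of them with 50 or more in each SS library. The opposite pattern was seen in 24 genes, and in 0 of them with 50 or more counts in each SA library. Gzme was chosen by this same contrast, and the limit of 50 lies under its smallest SS count of 153. Its place among these genes is therefore a description only. In bulk RNA, fewer cells of a type and less RNA per cell cannot be told apart, for Gzme and for every gene that follows.

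Gzmd, Gzmg, Gzmn and Gzmf, the members nearest to Gzme, had 0 counts in all 8 libraries. They start 12.0, 39.0, 54.0 and 90.8 kb from Gzme, at 56129556 to 56132608 (Gzmd), 56156582 to 56159579 (Gzmg), 56165797 to 56174599 (Gzmn) and 56205263 to 56211417 (Gzmf). A count of 0 can arise where reads fit several copies equally well, and how the authors treated such reads was not found in the labels. The transcript of Gzmd matches that of Gzme at 870 of 916 aligned bases (95%), and those of Gzmg, Gzmf and Gzmn at 91.3%, 88.9% and 84.2%. Among all 50-base windows of the annotated transcripts, 78.1% of those of Gzmd, 80.2% of Gzmg, 80.6% of Gzmf and 94.4% of Gzmn occur in no other gene. In Gzme 79.4% of the windows were its own, and 179 of 867 were shared, most often with Gzmd. Where reads were counted along these transcripts is not known, and the part of shared sequence in the counts of 0 was not tested.

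**Figure D1:**
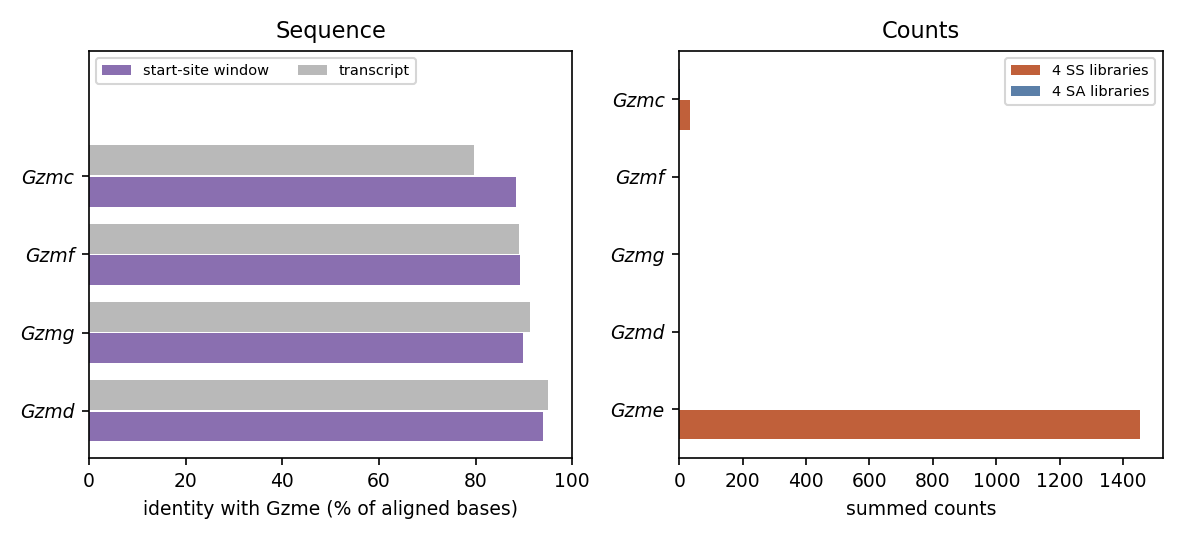
Left, identity with Gzme over aligned bases (%) of the 300-base start window (purple) and of the transcript (grey) for 4 members of the block. Right, counts summed over the 4 SS libraries (orange) and the 4 SA libraries (blue) for the same genes and Gzme. Gzmd is 94.0% (window) and 95% (transcript) identical and has 0 counts, while Gzme has 1452.

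Gzmc, which starts 114 kb from Gzme (56231441 to 56234656), was close to the limit of detection. Its counts were 1, 0, 1 and 1 in SA1 to SA4 and 1, 23, 8 and 1 in SS1 to SS4. The groups overlapped, since SS1 and SS4 were at the level of SA, and SS2 and SS3 held 31 of the 33 SS counts. The 33 SS counts against 3 SA counts gave a ratio of 10.7 (95% counting interval 3.37 to 54.7, scaled by library size), which covers counting error only and rests on those 2 libraries. It did not pass the filter on low counts. SS2, the highest library for Gzme, was also the highest for Gzmc, but SS3 had a Gzme value like that of SS1 and SS4.

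Gzmb, at the far end of the block (56258838 to 56262260, 142 kb from Gzme), was counted in every library and overlapped between the genotypes. It had 193, 129, 98 and 75 counts in SA1 to SA4 and 162, 82, 102 and 74 in SS1 to SS4. That is 4.43 ± 2.0 CPM in SA and 3.66 ± 1.44 in SS (SD, n = 4 each), a log2 difference of SS against SA of -0.28 (SE 0.66). The highest value of each genotype was in SA1 and SS1, libraries rich in leukocyte transcripts. The difference was 0.06 without SA1, -0.020 without all 3 of these libraries and 0.32 with the mean level of 15 leukocyte genes as a covariate. Gzmb and Gzme, on the same strand of 1 block, thus showed different patterns over the 8 libraries.

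Gzmk was the member with lower values in every SS library than in any SA library. It lies on chromosome 13 (113171608 to 113225908, minus strand) and encodes the tryptase of memory-type T cells. Its counts were 199, 111, 115 and 67 in SA1 to SA4 and 9, 45, 41 and 11 in SS1 to SS4. In CPM these were 7.46, 3.84, 3.84 and 2.46 against 0.316, 1.63, 1.45 and 0.354, with means of 4.40 ± 2.14 and 0.935 ± 0.697 (SD, n = 4). SS1, 1 of the leukocyte-rich libraries, had the lowest Gzmk level of all, from 9 counts. SA4, the SA library with the fewest leukocyte transcripts, was above every SS library. The part of leukocytes in the Gzmk values was not tested. The log2 difference was -2.23 (SE 0.90), and it was -2.19 with the leukocyte covariate and -1.47 without SA1, SA2 and SS1.

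Gzma, the neighbour of Gzmk on chromosome 13 (113093825 to 113100981, minus strand), did not share its pattern. It had 30, 135, 23 and 25 counts in SA1 to SA4 and 86, 18, 22 and 20 in SS1 to SS4, or 1.87 ± 1.87 and 1.27 ± 1.17 CPM (SD, n = 4). In each genotype 1 library was high, SA2 and SS1, and the other 3 lay close together, so that the groups overlapped. The log2 difference of -0.56 (SE 1.03) was 0.44 without SA2, -0.29 without SA1, SA2 and SS1 and 0.49 with the leukocyte covariate.

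Gzmm, on chromosome 10 (79689020 to 79695261, plus strand), was counted mainly in 1 library. SA1 had 95 counts, and SA2, SA3 and SA4 had 5, 0 and 1. In SS the counts were 0, 10, 0 and 13. The groups overlapped, and the gene did not pass the filter on low counts.

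Of the 10 members, 6 had counts and 4 passed the filter on low counts. edgeR's quasi-likelihood test called 0 of the 4 at an adjusted p of 0.05, and 0% of the 17316 genes tested. Gzme and Gzmk had an unadjusted p under 0.05, as did 6.98% of all genes, and since the comparison chose the members nothing is read from this. The groups did not overlap in 2 members, Gzme (higher in SS, as in 2.36% of all genes tested) and Gzmk (lower in SS, as in 1.55%). Per kilobase of annotated exons, the order of levels in SA was Gzmk at 3.17 CPM per kb, Gzmb at 3.09, Gzma at 1.86, Gzmm at 0.640, Gzmc at 0.0301 and Gzme at 0. In SS it was Gzme at 14.1, Gzmb at 2.55, Gzma at 1.26, Gzmk at 0.673, Gzmc at 0.330 and Gzmm at 0.132. In SS the lowest library of Gzme (5.37 CPM per kb) was above the highest of Gzmb (3.96). The library ranges of every other pair of neighbours in these orders overlapped, and in SA both Gzmc and Gzme were under the floor of 3 counts per library. As a share of the summed CPM of the family, Gzme made up 40.7%, 84.2%, 50.1% and 56.3% in SS1 to SS4. Gzmk made up 29.2% to 48.5% in SA and 2.1% to 11.8% in SS. The sum itself was 6.2 to 19.4 CPM in SA and 8.8 to 40.7 in SS, and these ranges overlapped.

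**Figure D2:**
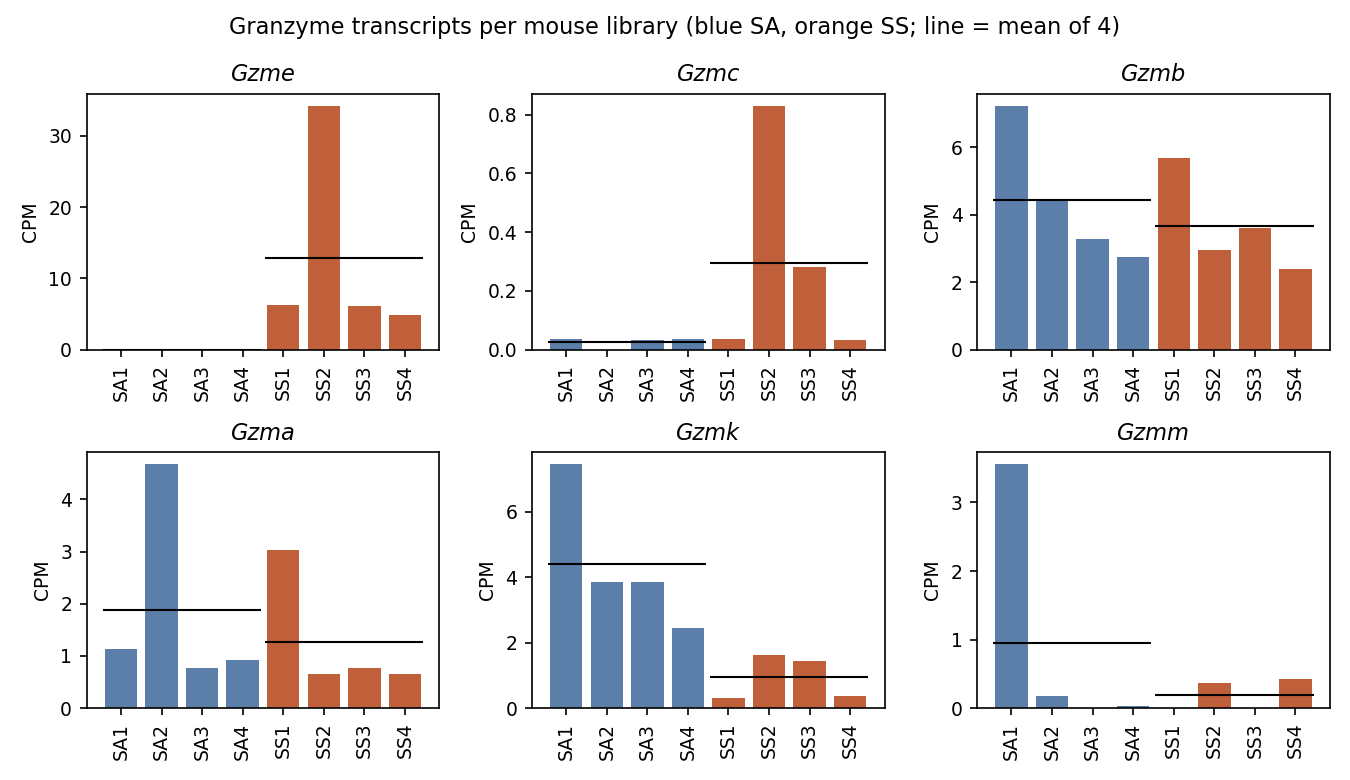
CPM of the 6 members with counts, 1 bar per library from 0, with SA in blue, SS in orange and a line at the mean of each group. Gzme is at 0 in the 4 SA libraries and between 4.92 and 34.3 CPM in SS, and Gzmk is the member with all SS points below all SA points.

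The genes beside Gzme on chromosome 14 were examined to see whether they follow it. None of them had its pattern of 0 counts in SA and counts in every SS library. Only 36 of the 52459 genes in the table had this pattern, so its absence among the neighbours says little. Of 62 genes annotated with a start within 500 kb of that of Gzme (GENCODE M21), 48 were found in the table by symbol. Of the 48, 13 had no count in any library, beside 40.3% of all genes in the table, and 26 passed the filter on low counts. Of these 26, 10 had a higher mean in SS and 16 a lower one, a positive share of 38.5% against 49% of all genes tested. With the leukocyte covariate 15 of the 26 were higher and 11 lower. Without the 3 leukocyte-rich libraries the filter kept 28 neighbours, 17 higher and 11 lower. edgeR called 0 of the 26 (smallest adjusted p = 0.695). Without adjustment 5 passed 0.05, of which 2 (Adcy4 and Nfatc4) were higher and 3 (Tinf2, Nop9 and Ctsg) lower in SS, and among all genes these shares were 4.03% and 2.96%. DESeq2 called 0 of 27 neighbours and 315 of 19472 genes (1.62%). The median log2 difference was -0.10, beside -0.01 for all genes tested. Within 100 kb, 8 of 10 genes were at 0 throughout and both others had lower means in SS. Within 1000 kb, 15 of 41 tested genes were higher and 26 lower, and 0 were called.

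On the side of the block away from Gzmb, the genes of granule proteases of other blood cells had lower means in SS or no counts. Ctsg, the gene of cathepsin G of neutrophil granules and the gene closest to Gzme on that side (18.1 kb), had 1001, 1323, 268 and 513 counts in SA1 to SA4 and 377, 351, 191 and 189 in SS1 to SS4. The means were 27.8 ± 16.9 and 9.68 ± 3.8 CPM (SD, n = 4), and SA3 lay within the SS range. The log2 difference of -1.52 (SE 0.53, edgeR adjusted p = 0.695) did not pass the test, and it was -0.71 without SA1, SA2 and SS1. Mcpt8, the basophil protease gene 35.4 kb away, had 1526, 2360, 26 and 0 counts in SA and 325, 0, 121 and 0 in SS. It was thus high where leukocyte transcripts were high, and its log2 difference turned from -3.16 (SE 1.99) to 3.06 with the leukocyte covariate and to 1.70 without the 3 libraries. Cma1, Cma2, Mcpt1, Mcpt9, Mcpt2 and Mcpt4, genes of chymases and other mast cell proteases, had 0 counts in all 8 libraries. Of the 14 other protease genes of the block, 10 were therefore at 0 throughout, as were 40.3% of all genes in the table. The 3 that passed the filter (Ctsg, Mcpt8 and Gzmb) had lower means in SS.

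**Figure D3:**
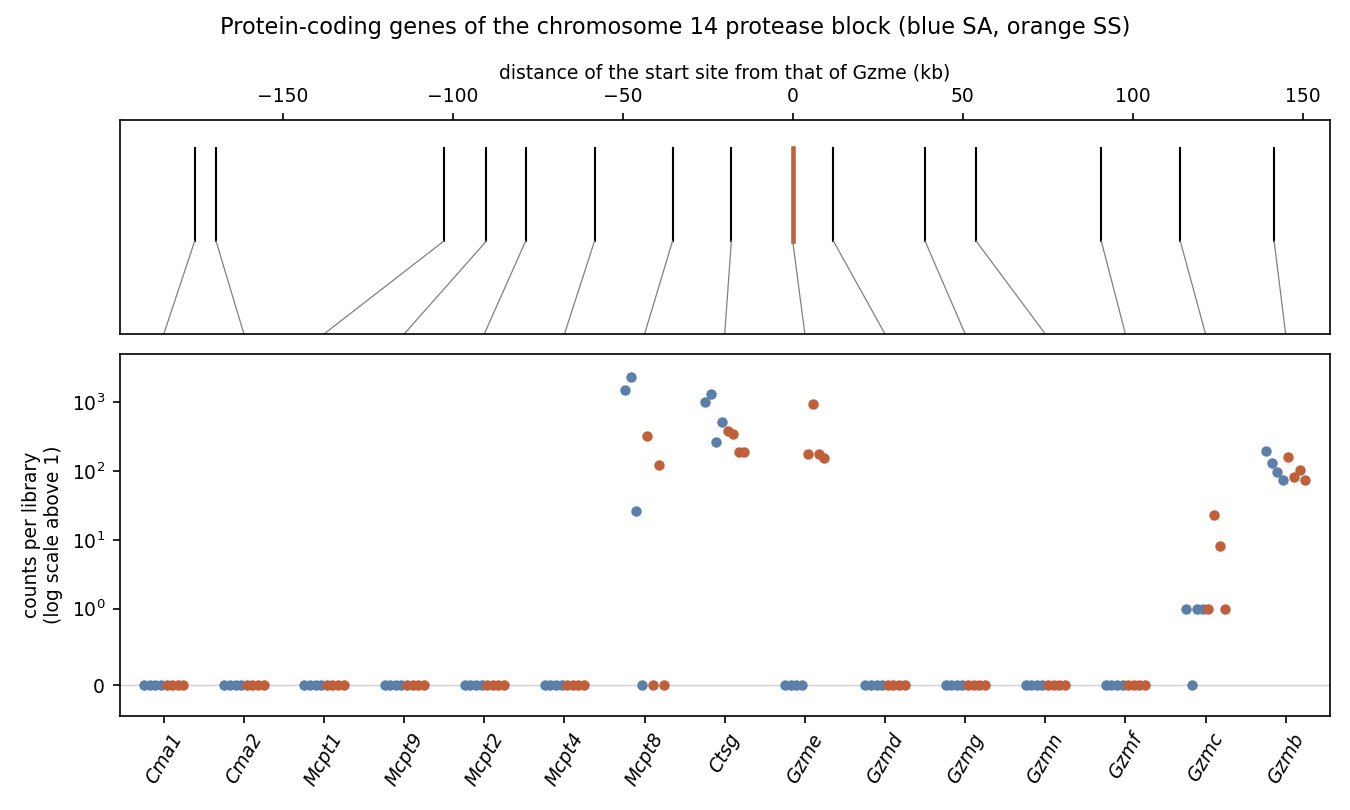
Top, start sites of the 15 protease genes of the block as distance from that of Gzme in kb. Bottom, counts per library of each gene in the same order, on a scale that is logarithmic above 1, with SA in blue and SS in orange. Gzme, at 0 in SA and at 153 to 948 counts in SS, stands between Ctsg, with counts in every library, and Gzmd, with 0 in all 8.

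Farther out the genes encode no granule protease, and their differences lay on both sides of 0. Nfatc4, the gene of a calcium-regulated transcription factor 297 kb from Gzme, had 120, 40, 370 and 373 counts in SA1 to SA4 and 745, 1022, 475 and 750 in SS1 to SS4. Of the 26 tested neighbours it was the 1 whose groups did not overlap, as was so in this direction for 2.36% of all genes, at 7.98 ± 5.98 and 26.0 ± 8.34 CPM (log2 difference 1.70, SE 0.63, adjusted p = 0.695 by edgeR, 0.99 without the 3 leukocyte-rich libraries). Adcy4, the gene of an adenylyl cyclase, had 301, 335, 217 and 205 counts in SA and 677, 769, 305 and 459 in SS, where SS3 fell below SA1 and SA2 when scaled to library size. Its log2 difference was 1.03 (SE 0.42). Tinf2, the gene of a telomere-binding protein, had a difference of -1.12 (SE 0.42, and -1.73 without the 3 libraries), with 350, 655, 1196 and 913 counts in SA and 483, 383, 332 and 240 in SS. Nop9, the gene of a nucleolar protein, had a difference of -2.68 (SE 1.18) that rested on SA4, whose 4405 counts compare with 137, 247 and 82 in the other SA libraries and 68 to 345 in SS. It was 0.35 without SA4. Reads of Nop9 and the overlapping Cideb, and of Tinf2 and Gmpr2, cannot be told apart without the strand setting (not given in the sources used here).

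None of the remaining tested neighbours had an edgeR adjusted p under 0.695. Higher means in SS were seen for Tgm1 (1.24), Rabggta (1.12), Cbln3 (0.78), Ipo4 (0.54), Nedd8 (0.39), Mdp1 (0.30), Gm16573 (0.28) and Tm9sf1 (0.23). Lower means were seen for Ltb4r1 (-1.69), Ripk3 (-0.67), Khnyn (-0.46), Dhrs1 (-0.41), Parp4 (-0.39), Sdr39u1 (-0.23), Cenpj (-0.19), Rnf17 (-0.10), Nynrin (-0.10), Gmpr2 (-0.08) and Tssk4 (-0.06). Ripk3 encodes a kinase of necroptosis, a form of cell death that cytotoxic cells can also set off. Several of these signs turned under an alternative setting. Among genes under the filter, Atp12a, the gene of a proton pump 244 kb on the side of Gzmb, had 0 counts in SA and 0, 132, 16 and 0 in SS1 to SS4, so its counts were in SS2 and SS3, the libraries that held 31 of the 33 SS counts of Gzmc. Gm25887, Cideb, Ltb4r2, Gm5801, Gm4819, Gm24392 and Gm22431 had 1 to 91 counts over the 8 libraries and no shared pattern with Gzme.

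**Figure D4:**
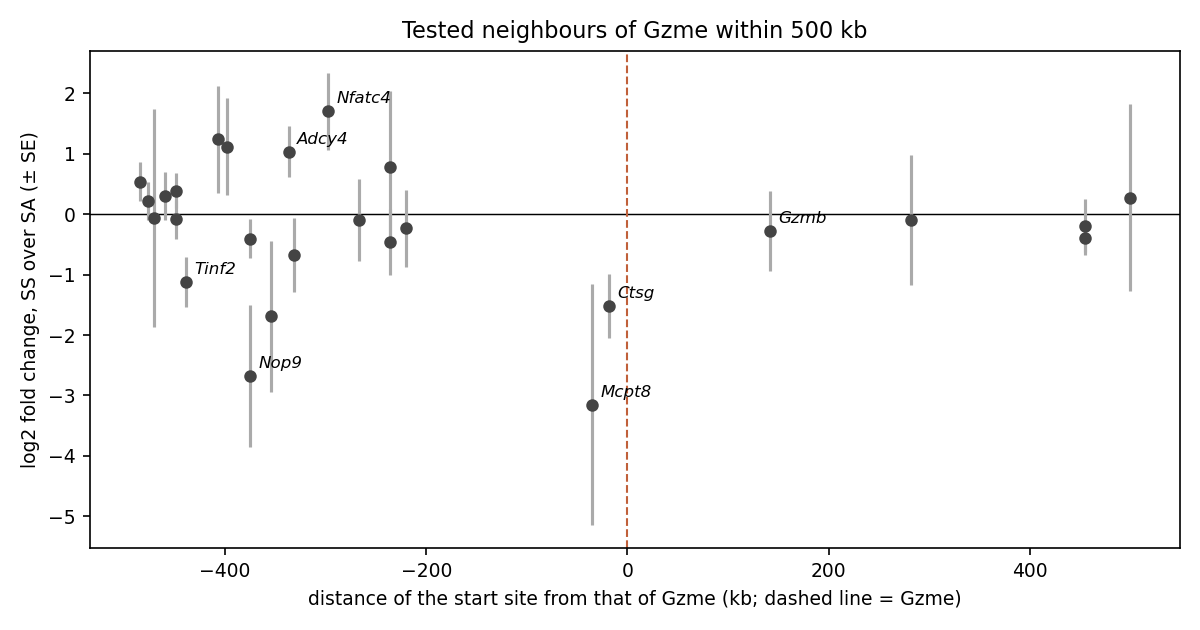
Log2 difference of SS against SA (with its SE) of the genes tested within 500 kb of Gzme, placed by the distance of their start from that of Gzme in kb. The points lie on both sides of 0, with 10 above and 16 below it, and the genes nearest to Gzme, Ctsg and Mcpt8, lie below.

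The genes whose log2 CPM followed Gzme most closely over the 8 libraries were sought among those averaging 1 CPM or more. Of the other protease genes of the block only Ctsg, Mcpt8 and Gzmb could enter. Nothing is therefore read from where in the genome the closest genes lie. By Pearson's r the closest were 1700120O09Rik (0.99), Zcchc5 (0.98), Dkk3 (0.97), Gm8420 (0.97) and Sar1b (0.96), out of 15804 genes at that level. 1700120O09Rik had 0 CPM in SA and 1.51, 4.70, 0.741 and 1.22 in SS1 to SS4, with SS2 highest as for Gzme. Zcchc5 had 0 in SA and 1.51, 4.16, 3.74 and 3.8 in SS. Both reached the mean of 1 CPM through SS alone, and Gm8420 (means of 0.123 in SA and 1.96 in SS) mainly through SS. Dkk3, the gene of a secreted protein related to Wnt inhibitors, ran from 22.3 to 36.1 CPM in SA and from 77.7 to 156 in SS. The 8 points share 2 genotypes, so any gene that separates them scores high. Spearman's rho kept 1 of the 5, with 21 genes at or above the fifth place, and Pearson's r without SS2 kept 4.

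For the other members above that level the closest genes were of other kinds. Gzma went with Il10 (r = 0.97), the gene of an anti-inflammatory cytokine, Lpxn, Prg2, the gene of an eosinophil granule protein, Stag3 and Prdx5 (0.94). Prg2 had 22.4 CPM in SA2 and 28.9 in SS1 and at most 1.95 in each other library, so it was high in the same 2 libraries as Gzma. Gzmb went with Epb41 (0.97), abundant in red cell precursors, Diaph1, Ppp1r15b and A630001G21Rik. Gzmk went with Rab1b (0.96), Gm42728, Farsa, Grm7 and Nrf1 (0.93). None of these lists shared a gene.

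The genes that carry, release or hold back granzymes did not pass the test between the genotypes. All 18 on the list had counts, 16 were tested, 6 had higher and 10 lower means in SS, and edgeR called 0 (smallest adjusted p = 0.695), as it did 0% of all genes. Without adjustment 1 passed 0.05 as higher (Igf2r) and 1 as lower (Serpinb6b), as did 4.03% and 2.96% of all genes. The median log2 difference was -0.49 beside -0.01 for all genes, 0.10 with the leukocyte covariate (10 higher and 6 lower) and -0.06 without the 3 leukocyte-rich libraries. Prf1, the gene of perforin, was nearly absent, with 0, 6, 26 and 0 counts in SA1 to SA4 and 1, 1, 4 and 1 in SS1 to SS4. In the SS libraries, which had 153 to 948 counts of Gzme, perforin was thus at 1 to 4 counts. Srgn, the gene of serglycin, was abundant in all libraries, with 2420 to 8982 counts in SA and 1779 to 6981 in SS, and is also made by other blood cells. Serpinb6b, the gene of an intracellular serpin, had 217, 136, 100 and 97 counts in SA and 64, 25, 13 and 20 in SS. The groups did not overlap, as was so in this direction for 1.55% of all genes tested. The log2 difference of Serpinb6b was -2.21 (SE 0.83), with an adjusted p of 0.695 by edgeR and 0.0400 by DESeq2, the 1 partner that DESeq2 called. DESeq2 called 0.704% of all genes as lower.

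The remaining partners, receptors and release genes, were called by neither tool. Igf2r, the mannose-6-phosphate receptor that can take up granzyme B, was at 107 ± 43.7 CPM in SA and 189 ± 56.7 in SS (log2 difference 0.83, SE 0.33). Nkg7, the gene of a granule membrane protein, was at 13.1 ± 7.77 and 5.13 ± 2.36 CPM (-1.35, SE 0.66, and -0.59 without the 3 leukocyte-rich libraries). Stx11, the gene of a fusion protein needed for granule release, was at 39.6 ± 20.7 and 17.0 ± 13.2 CPM (-1.22, SE 0.70). The groups overlapped in all 3. Serpinb9b, a relative of the granzyme B inhibitor, had 0 to 4 counts per library.

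Known targets of granzymes were counted in these cells and were called by neither tool. Of 19 genes on the list 18 were found in the table, and all 18 were tested. In SS 12 had higher and 6 lower means, with a median log2 difference of 0.08. edgeR called 0 of the 18, and 0% of all genes, and DESeq2 called 0, and 1.62% of all genes. By edgeR 1 (F2r) was higher at an unadjusted p under 0.05, as were 4.03% of all genes. F2r, the gene of the thrombin receptor PAR1, was at 13.6 ± 9.42 CPM in SA and 36.1 ± 18.4 in SS (1.41, SE 0.55, edgeR adjusted p = 0.695). Hmgb2, a chromatin protein cut by granzyme A, was at 152 ± 80.9 and 81.6 ± 34 CPM (-0.90, SE 0.42, and -0.28 without the 3 leukocyte-rich libraries). The difference of Lmnb1, the gene of a nuclear lamin, was -0.70 and without them -0.029. Transcript levels say nothing of cutting.

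Markers of the cells that could hold granzymes were measured beside them. All 20 T and NK cell markers had counts, 13 were tested, and 2 had higher and 11 lower means in SS. edgeR called 0, and 0 had an unadjusted p under 0.05, beside 6.98% of all genes. DESeq2 called 1 of 16, and 0.704% of all genes, as lower. This was Cd8b1, the gene of a chain of the cytotoxic T cell receptor partner CD8, which had 48, 179, 2 and 3 counts in SA1 to SA4 and 2, 0, 2 and 2 in SS1 to SS4 (adjusted p = 0.0350). Their summed level was 67.4, 90.8, 49.4 and 30.0 CPM in SA1 to SA4 and 53.1, 31.5, 38.2 and 29.8 in SS1 to SS4. SS2, the library with the most Gzme, was thus near the low end for these markers. Ncr1 and Eomes, defining genes of NK cells, had 0 counts in SS2, SS3 and SS4, but also in SA1 and SA4. Cd8a had 0 in SS2, but also in SA3 and SA4. The T cell genes Cd3e and Cd3g, picked after their values were seen, were counted in every library at similar levels. Cd3e had 115 to 144 counts in SA and 102 to 130 in SS, and Cd3g 79 to 98 and 67 to 111. Klrd1, the gene of the NK cell receptor chain CD94, had a higher mean in SS (log2 difference 1.55, SE 1.40). Its counts were 29, 79, 36 and 6 in SA1 to SA4 and 238, 190, 2 and 4 in SS1 to SS4. It was thus high in SS2, the library with the most Gzme, and low in SS3 and SS4, which also had Gzme. Nkg7 and Prf1 stand on the partner list too. For mast cells and basophils, 4 of 10 markers (Tpsb2, Tpsab1, Cma1 and Mcpt4) were at 0 throughout, and the sum was 60.1 to 469 CPM in SA and 5.5 to 253 in SS. All 8 myeloid granule genes, with Ctsg among them, had lower means in SS, with sums of 1300 to 8289 and 234 to 3458 CPM.

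Leukocyte genes in general had lower means in SS, with libraries that overlapped. All 15 pan-leukocyte genes had lower means, and edgeR and DESeq2 called 0, beside 0% and 1.62% of all genes. By edgeR 2 were lower at an unadjusted p under 0.05, as were 2.96% of all genes. The sum of the 15 was 4548, 5077, 1563 and 924 CPM in SA1 to SA4 and 2989, 504, 1273 and 430 in SS1 to SS4. Of 8 markers of plasmacytoid dendritic cells, which carry Gzmb, 7 had lower means in SS, and Tcf4 had a higher one (log2 difference 0.45). The median log2 difference of the 8 was -1.59. Their summed level nevertheless overlapped, at 318, 291, 271 and 311 CPM in SA1 to SA4 and 318, 329, 403 and 271 in SS1 to SS4. The sum thus does not stand for most of these markers. Klk1, a kallikrein gene used as a marker of these cells, had 109, 75, 37 and 13 counts in SA and 1, 0, 0 and 0 in SS, and it passed by DESeq2 (adjusted p = 0.000124), which called 0.704% of all genes as lower, and not by edgeR (adjusted p = 0.411). Of 9 stromal identity genes 8 had higher means in SS, and their sum was 14410 to 31267 CPM in SA and 20888 to 30545 in SS. Gzma and Gzmb were highest in leukocyte-rich libraries, and Gzme in SS2, which is low in leukocyte transcripts. Within SS, however, the leukocyte-rich SS1 had 6.22 CPM of Gzme, above SS4 with 4.92, which had the lowest pan-leukocyte sum. The part of these cells in the values of the members was not tested.

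**Figure D5:**
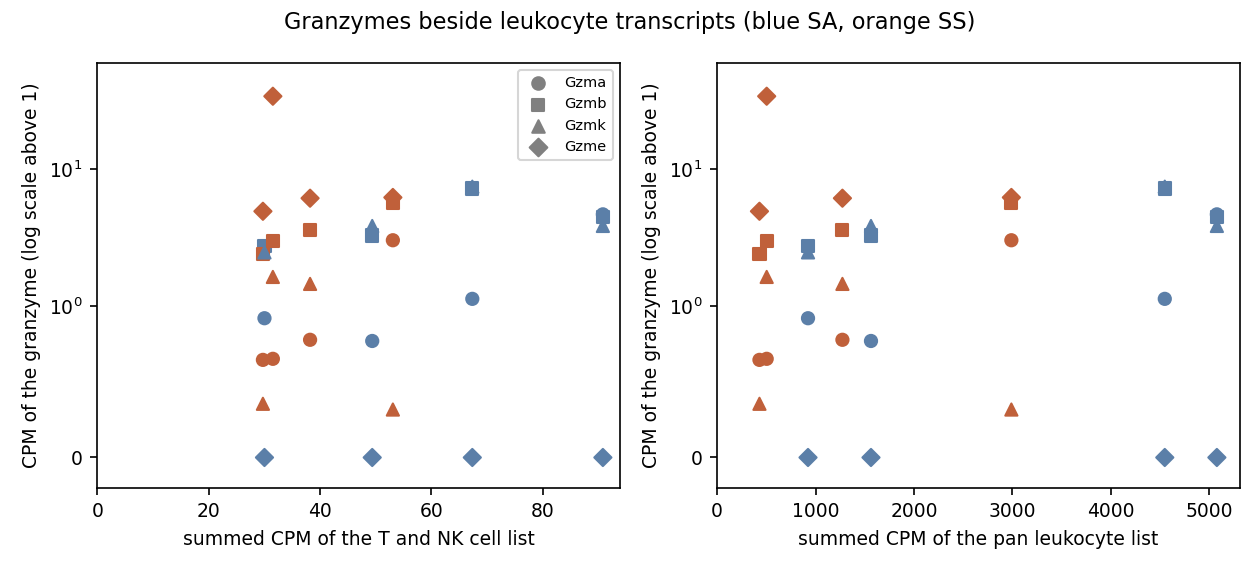
CPM of Gzma, Gzmb, Gzmk and Gzme (by shape, on a scale that is logarithmic above 1) against the summed CPM of T and NK cell markers (left) and of pan-leukocyte genes (right), 1 point per library, with SA in blue and SS in orange. SS2, with 34.3 CPM of Gzme, has a pan-leukocyte sum of 504 CPM, and SA1 and SA2, with sums of 4548 and 5077, have 0 Gzme counts. SS1, with a sum of 2989, has 6.22 CPM of Gzme, and SS4, with a sum of 430, has 4.92.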

How the data were processed

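Raw read counts per gene symbol for 8 mice were used as the authors deposited them, whole numbers without scaling. Per the submitters' processing notes, the tools were bcl2fastq, STAR, featureCounts and DESeq2, and the builds mm10 and GRCm38, with no versions named. The annotation, the strand setting and the handling of reads that fit several genes were not given in the sources used here. Only titles number the mice, so p-values may measure technical spread.

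The test was edgeR's (4.0.16, R 4.3.3) robust quasi-likelihood F test of SS against SA with TMM factors and no covariate, after filterByExpr, with Benjamini-Hochberg adjustment over 17316 genes and a threshold of 0.05. Alternatives were DESeq2 1.42.0, limma-voom (3.58.1) and other settings. CPM uses totals scaled by TMM. The SE is the log2 difference divided by the root of F. Log2 CPM for likeness has a prior count of 2. Fold bounds take a floor of 3 counts per library, and intervals and floors cover counting error only. Sequences were aligned with Biopython 1.88, and positions are from GENCODE M21.

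The members and all lists were chosen with earlier results of these data known. Named are all members, every gene with a count within 500 kb of Gzme, up to 4 genes per other list by smallest p, and the 5 genes most like each member of at least 1 CPM. Prf1, Srgn, Serpinb9b, Cd8b1, Ncr1, Eomes, Cd8a, Cd3e, Cd3g, Cxcl12 and Ptprc were added after their values were seen. Some genes that this rule names are not reported here.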

Additional observations from a re-analysis of the deposited data

Results flagged for a closer look

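In a group of 4 libraries a value stands out where its gap to the nearest other is more than Dixon's 95% limit for 4 values allows as a share of the whole range, which chance gives in about 1 of 20 groups. Of 122 groups with at least 10 counts, 12 had such a value. Among the members these were Gzme in SS2 (34.3 CPM, others 4.92 to 6.22), Gzma in SA2 (4.67, others 0.768 to 1.12) and in SS1 (3.02, others 0.643 to 0.776), and Gzmm in SA1 (3.56, others 0 to 0.173). SS2 is the library with high Xist, and SA1, SA2 and SS1 are those rich in leukocyte transcripts.

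Among genes within 500 kb of Gzme they were Nop9 in SA4 (162 CPM, others 2.74 to 8.55), Tssk4 in SA3 (5.28, others 0 to 0.110), Tgm1 in SS3 (17.7, others 1.84 to 3.89), Tm9sf1 in SS4 (26.4, others 18.4 to 19.5), Gm25887 in SS1 (2.67, others 0), Gm5801 in SS2 (1.3, others 0.0353 to 0.161), Atp12a in SS2 (4.77, others 0 to 0.564) and Gm22431 in SA4 (2.2, others 0).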

How the results depend on the processing

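The numbers of called genes among the neighbours of Gzme and among the substrates were 0 under every alternative run. Over all genes edgeR called 0, DESeq2 315, DESeq2 with its Cook's distance filter off 473, edgeR without the low-count filter 5, and edgeR with a library left out 0 to 1 (1 without SS replicate 1). Among partners DESeq2 called 1 with and 1 without that filter (Serpinb6b). The lower bound for Gzme was 119 with DESeq2 factors, 110 with raw totals, chosen after seeing the data, and 54.0 to 146 with a library left out. With a replicate block edgeR called 0 genes, with a median log2 difference of -0.16 among the neighbours. The same-numbered libraries had correlations of deviations of 0.22, -0.15, -0.02 and 0.14, and 1 of 4 numbers correlated best with its own. No sign was seen that the numbers pair the mice, but 4 correlations cannot exclude it.

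Of 54 named genes outside the family, 20 changed sign in at least 1 alternative, and the cause was not tested. Limma-voom turned Tssk4 (1.5), Nynrin (0.59), Rnf17 (0.58) and Klrd1 (-0.13), and the replicate block Tssk4 (1.59) and Nynrin (0.37). The leukocyte covariate turned Mdp1 (-0.22), Ltb4r1 (0.36), Ripk3 (0.054), Khnyn (0.52), Mcpt8 (3.06), Cenpj (0.22), Lmnb1 (0.13), Cpa3 (0.72), Prss34 (3.03) and Pdgfra (-0.021). Leaving out the 3 leukocyte-rich libraries turned Mdp1 (-0.022), Gmpr2 (0.19), Dhrs1 (0.031), Ripk3 (0.15), Khnyn (0.30), Sdr39u1 (0.28), Mcpt8 (1.70), Cpa3 (0.079), Prss34 (3.89) and Pdgfra (-0.031). With 1 library left out, values ran from -0.75 to 4.31 (Tssk4), -0.26 to 0.11 (Gmpr2), -3.06 to 0.35 (Nop9), -0.99 to 0.19 (Ripk3), -0.48 to 0.21 (Nynrin), -0.30 to 1.74 (Cbln3), -0.77 to 0.067 (Khnyn), -0.72 to 0.27 (Sdr39u1), -0.75 to 0.17 (Rnf17), -0.57 to 0.059 (Cenpj), -1.07 to 1.64 (Gm16573) and -2.42 to 0.12 (Cpa3). Depth limits Gzmc, Gzmm and Prf1, whose counts are near the floor in most libraries.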
